A study of Amphimedon queenslandica with 43 samples.

Results

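The light around a swimming sponge larva was changed early in its life, and the transcripts of single larvae of the demosponge Amphimedon queenslandica were compared between constant light and constant dark at 1 hour post emergence (hpe). The 14 larvae compared, 7 under each regime, were chosen by the regime and age in their titles, out of 43 larvae in the series. All larvae were collected in a 30 minute window from 11 am and were in filtered sea water under their regime by 0.5 hpe, so those taken at 1 hpe had spent about 0.5 hours in it. Constant light came from a full-spectrum fluorescent tube, and constant dark was made with a neutral density filter that still passed 6.6% of ambient daylight. The other larvae were 7 under a natural day-night regime at 1 hpe, and at 9 hpe 7 in constant dark, 7 in constant light and 8 under day-night. The dark larvae of 1 hpe were therefore dimly lit rather than in full darkness, and the spectra of the regimes were not compared here.

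Larvae of this sponge are brooded, released, and swim with cilia before they settle on the sea floor and metamorphose. They have no neurons, and a ring of pigmented, ciliated cells at the posterior end steers them with respect to light. Cryptochromes, flavin-based light receptors, are expressed in that ring, while opsins have not been found in this sponge. Which of the measured models encode these proteins is not known from the sources used here, since the deposited files do not pair their identifiers with gene names and the reference gene table matched 0 of them. The results therefore name 2 models that were higher and 2 that were lower in constant light, describe the rest by counts and ranges, and give no function.

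Depth and detection were compared first. Total counts averaged 3164866 ± 240220 in light and 3143107 ± 462342 in dark (SD, n = 7 each), a difference within the spread of larvae (exact two-sided permutation test p = 0.833 on log10 totals and 0.914 on the totals themselves). The number of transcript models with a count was 21222 ± 237 in light and 21437 ± 725 in dark (p = 0.473, exact permutation test). The 100 most abundant models held 14.6% ± 0.918 of the counts in light and 15.5% ± 1.23 in dark (p = 0.130, adjusted p = 0.209 over 8 exact permutation tests). No model was counted in all 7 larvae of 1 regime and in none of the other. The most larvae of 1 regime to hold a model with no count in the other regime was 6, for 4 models in light and 3 in dark.

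Some larvae had closer profiles than others, both within a regime and across regimes. Over the 14188 models tested, 10 of the 91 pairs of larvae lay at a Euclidean distance of log2 CPM of 140.3 or less, and the other pairs at 146.5 to 160.3. CPM is the count of a model scaled to a common library size (edgeR's counts-per-million). These close pairs joined 9 larvae into 3 sets, namely light replicates 1, 2 and 3, dark replicates 1 and 2, and dark replicates 3, 5 and 6 with light replicate 7. Of the 10 pairs, 7 were of the same regime and 3 of different regimes, where the 91 pairs in all held 42 of the same regime and 49 of different regimes. On the second principal component of all 43 larvae, which held 6.07% of the variance, dark replicates 3, 5 and 6 and light replicate 7 lay with 4 constant-light larvae of 9 hpe at -38.9 or below, while every other larva lay at -12.1 or above. The labels name no parent or batch that could be set against these sets, and their part in the results below was not tested beyond the values given with them.

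**Figure D1:**
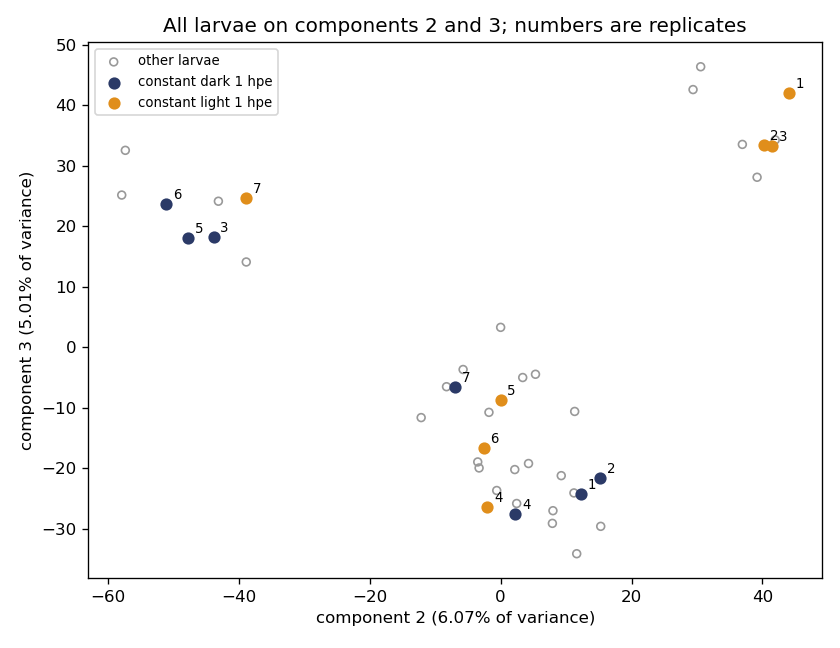
Principal components 2 and 3 of log2 CPM for all 43 larvae, with the share of variance on each axis; filled points are the 7 constant-light and 7 constant-dark larvae of 1 hpe with their replicate numbers, and open points are the other larvae. Dark replicates 3, 5 and 6 and light replicate 7 sit at -38.9 or below on component 2, and light replicates 1, 2 and 3 sit together at the other end.

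Few models were called between the regimes. At an adjusted p below 0.05, edgeR's quasi-likelihood test with Benjamini-Hochberg adjustment called 21 of the 14188 models tested (0.148%). Of these, 10 were higher in light (0.0705%) and 11 were lower (0.0775%). At an unadjusted p below 0.05 there were 1688 models (11.9%), 865 higher (6.1%) and 823 lower (5.8%). Among the 21 called models 11 had light and dark larvae that did not overlap, against 62 of all models tested (0.437%). Those 11 were 5 higher and 6 lower, beside 0.148% and 0.289% of all models tested. The 21 were chosen by their difference in these same larvae, so a larger share among them follows from that choice and is no further support.

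The levels and sizes of change of the called models covered wide ranges, which overlapped between the higher and the lower models and were not tested against each other. The 10 higher models changed by 1.43-fold to 5.90-fold, with a median log2 fold change of 1.00, and had 5.84 to 330.5 CPM in light (median 41.4). The 11 lower models were 1.28-fold to 16.4-fold higher in dark, with a median log2 fold change of -0.61, and had 47.6 to 741 CPM in dark (median 228). At least 2-fold changes were found in 5 of the higher and 3 of the lower models. Over all models tested the median log2 fold change was 0.00 and the median size of the change 0.27.

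**Figure D2:**
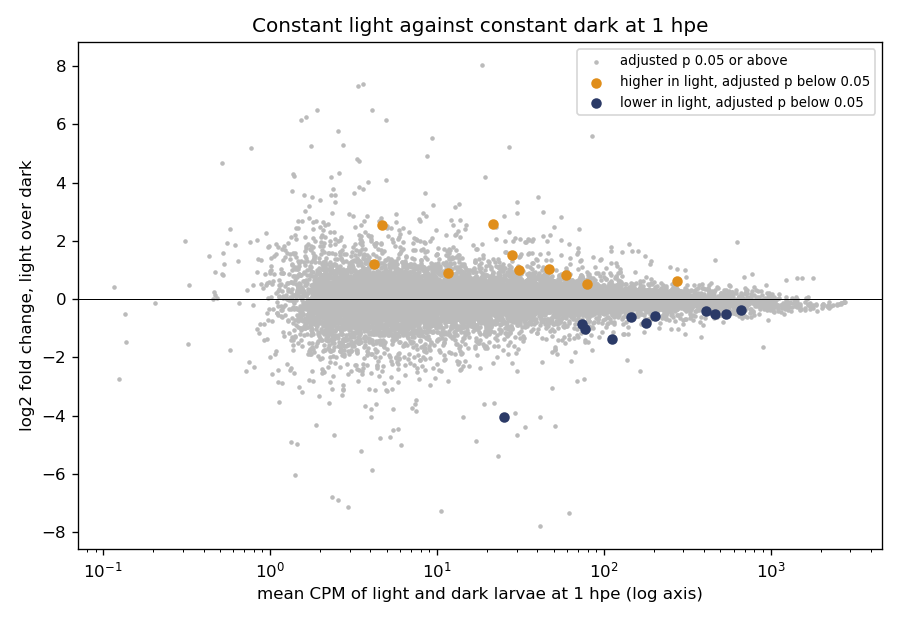
Log2 fold change of constant light over constant dark at 1 hpe against mean CPM of the 14 larvae (log axis), 1 point for each of the 14188 models tested. The 10 higher (orange) and 11 lower (blue) called models lie among many uncalled models with larger fold changes.

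The count of 21 depended on which larvae were used. When 1 larva was left out at a time, the test called 3 to 18 models, of which 3 to 15 were among the 21. Without light replicates 1 to 7 in turn it called 4, 9, 6, 7, 16, 11 and 10 models. Without dark replicates 1 to 7 in turn it called 3, 8, 10, 15, 7, 6 and 18. Without the larvae apart on component 2 it called 1 model, and when the alike larvae were summed within a regime, leaving 5 light and 4 dark libraries, edgeR called 0, as did limma voom, a setting chosen after seeing the data. There, 912 of 15111 models had an unadjusted p below 0.05 in edgeR, all 21 among them. The same larvae chose the 21, so this was close to set in advance and is no further support for them. In every one of these settings all 21 models kept the direction of their fold change, which is a property of the models chosen and no further support for them.

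Aqu2.1.34611_001 was the model with the smallest p and was lower in light. Its level was 103 to 233 CPM in dark (median 145) and 36.1 to 92.7 CPM in light (median 62.5). Every dark larva lay above every light larva. The means were 161 ± 52.3 CPM in dark and 61.9 ± 19.04 CPM in light (SD, n = 7 each), which gave a log2 fold change of light over dark of -1.38 with an SE of 0.21 (edgeR adjusted p = 0.00175). It was called whichever larva was left out and in 23 of 25 alternative settings, and lost its call when only the 14 larvae were fitted (edgeR adjusted p = 0.0704) and when alike larvae were summed (edgeR adjusted p = 0.0661). Day-night larvae of 1 hpe lay between, at 95.3 ± 25.6 CPM (SD, n = 7), and the difference of neither regime from them passed the adjusted threshold.

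Aqu2.1.38341_001, also lower in light, was an abundant model with a small change. Its level was 464 to 588 CPM in dark (median 555) and 319 to 458 CPM in light (median 375). The regimes did not overlap, although the lowest dark and the highest light larva were close. The means were 542 ± 42.5 CPM in dark and 383 ± 53.5 CPM in light (SD, n = 7 each), or -0.50 ± 0.10 as log2 of light over dark (SE; edgeR adjusted p = 0.0149). It was called in 18 of 25 alternative settings. The call was lost without light replicate 1 (edgeR adjusted p = 0.0591) and without dark replicate 1 (edgeR adjusted p = 0.0581). The other losses were with only the 14 larvae fitted (edgeR adjusted p = 0.0836), no filter on low counts (0.0945), the larvae apart on component 2 left out (0.222), components 2 and 3 as covariates (0.0548) and alike larvae summed (0.631). Day-night larvae, at 528 ± 67.6 CPM (SD, n = 7), differed from light (log2 fold change of light over day-night -0.46 ± 0.10, edgeR adjusted p = 0.00824), while the log2 fold change of dark over day-night was 0.04 ± 0.09 (edgeR adjusted p = 0.953).

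Aqu2.1.41832_001 was higher in light. It was measured at 12.8 to 30.9 CPM in dark (median 22.2) and 32.02 to 53.9 CPM in light (median 38.7). No dark larva reached the lowest light larva. The means were 20.7 ± 6.24 CPM in dark and 41.1 ± 8.83 CPM in light (SD, n = 7 each), or 0.99 ± 0.18 as log2 of light over dark (SE; edgeR adjusted p = 0.0149). It was called in 19 of 25 alternative settings and lost its call without dark replicate 1 (edgeR adjusted p = 0.0581). It also did so with no filter on low counts (edgeR adjusted p = 0.0945), only the 14 larvae fitted (0.106), the larvae apart left out (0.123), components 2 and 3 as covariates (0.0548) and alike larvae summed (0.356). Day-night larvae had 25.8 ± 6.19 CPM (SD, n = 7).

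Aqu2.1.41945_001 was higher in light as well, with overlap between the regimes. Dark larvae had 30.0 to 58.1 CPM (median 39.3) and light larvae 54.8 to 98.7 CPM (median 78.2). The lowest light larva lay below the highest dark larva. The means were 42.8 ± 10.2 CPM in dark and 75.5 ± 15.7 CPM in light (SD, n = 7 each), or 0.82 ± 0.16 as log2 of light over dark (SE; edgeR adjusted p = 0.0149). This model was called in 14 of 25 alternative settings. Among single larvae, leaving out light replicate 1 or 3 or dark replicate 1 or 6 ended the call, with edgeR adjusted p-values of 0.0542, 0.0667, 0.0704 and 0.0615. So did no filter on low counts (edgeR adjusted p = 0.0945), only the 14 larvae fitted (0.106), component 2 as a covariate (0.134), components 2 and 3 as covariates (0.141), the larvae apart left out (0.222) and alike larvae summed (0.631). One more setting that ended it is given with the other checks of the processing. Day-night larvae had 53.8 ± 16.6 CPM (SD, n = 7).

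**Figure D3:**
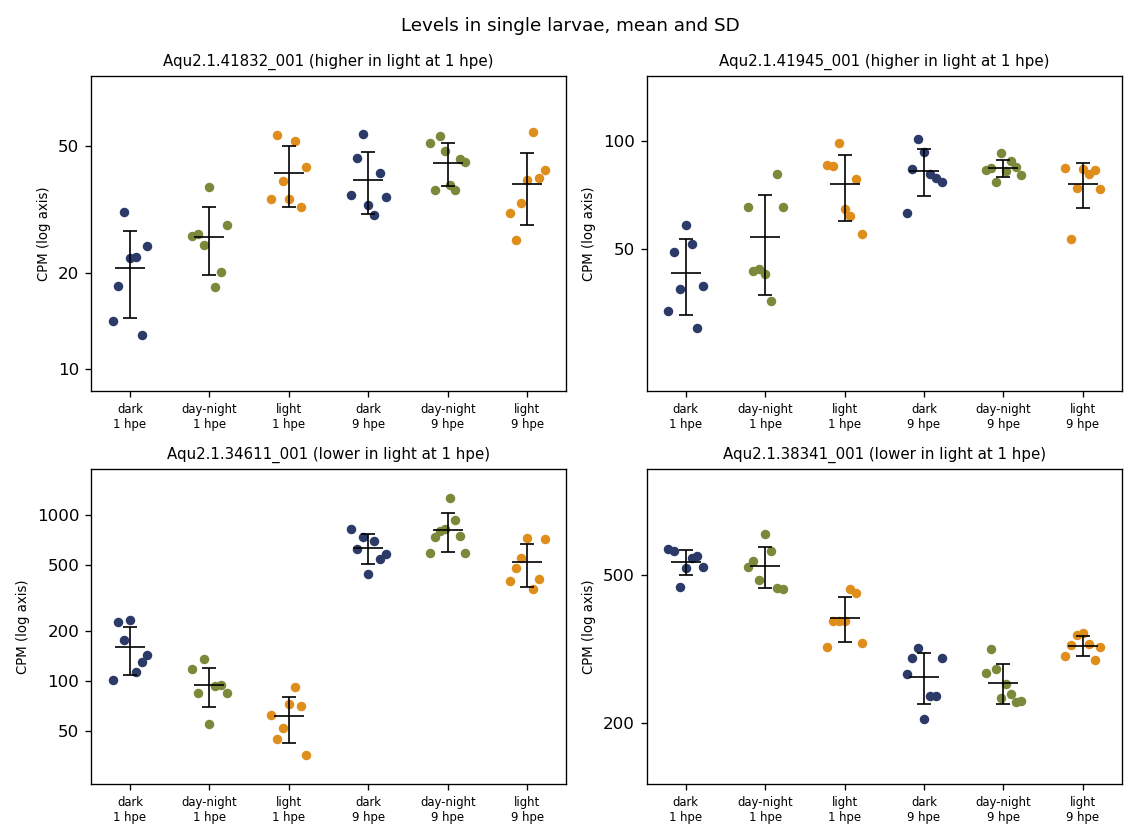
CPM (log axis) of the 4 named models in single larvae of each regime at 1 and 9 hpe, with the mean and SD of each group as bars (n = 7, and 8 in day-night at 9 hpe). At 1 hpe the light and dark larvae do not overlap except for Aqu2.1.41945_001, and at 9 hpe they overlap for all 4 models.

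Some of the other called models rested on an uneven spread of larvae, and those below were singled out after the values were seen. A model higher in light, with a log2 fold change of 2.56, had 209 CPM in light replicate 6 against 5.99 to 14.4 CPM in the other light larvae and 4.74 to 9.46 CPM in dark. With light replicate 6 left out, the log2 fold change fell to 0.43 (edgeR adjusted p = 0.532). The model with the largest drop in light, a log2 fold change of -4.03, had 46.1 to 107 CPM in 5 dark larvae, 1.28 and 0.756 CPM in dark replicates 4 and 7, and 0.374 to 8.85 CPM in light. In day-night larvae of 1 hpe it ranged from 0 to 23.1 CPM. The 2 low dark larvae thus lay within the range of the light larvae. A further model higher in light, with a log2 fold change of 2.556, had 1.25 to 16.9 CPM in light and 0 to 3.29 CPM in dark. Its light replicates 3 and 5, at 2.98 and 1.25 CPM, lay within the range of the dark larvae. It was called in 3 of 25 alternative settings.

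Whether the same contrast was seen later was asked of the larvae of 9 hpe. These are not in the contrast that chose the 21 models, but they shared its filter and its estimate of the spread, and with only the 14 larvae fitted 5 models were called, 3 of them among the 21. At 9 hpe edgeR called 116 of 14188 models between light and dark (0.818%), 0.684% higher and 0.134% lower in light, and 0 of them were among the 21. DESeq2 called 1 of the 21 at 9 hpe and limma voom 0. At an unadjusted edgeR p below 0.05 there were 3 of the 21, beside 1750 of all models tested (12.3%). All 3 were lower in light at 1 hpe and higher in light at 9 hpe, so none of them kept its direction. The log2 fold changes of the 10 higher models ran from -0.29 to 0.44 at 9 hpe (median -0.03), with 4 above and 6 below 0. Those of the 11 lower models ran from -0.29 to 1.897 (median 0.14), with 9 above and 2 below 0.

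The difference between the 2 ages was itself tested, with the reservation that the 1 hpe larvae in it also chose the models. It also holds the unlike time under the regime and the unlike ambient daylight of the 2 ages. It was called for 12 of the 21 models, 4 higher and 8 lower in light at 1 hpe, beside 148 of all models tested (1.04%), with 0.74% above and 0.303% below 0 in 9 minus 1 hpe. For Aqu2.1.38341_001 the log2 fold change of light over dark went from -0.50 ± 0.10 at 1 hpe to 0.28 ± 0.10 at 9 hpe, a difference of 0.78 ± 0.13 (SE, edgeR adjusted p = 0.000940). For Aqu2.1.41832_001 it was -0.05 ± 0.18 at 9 hpe and for Aqu2.1.41945_001 -0.12 ± 0.15, and both differences between ages were called. Aqu2.1.34611_001, at 637 ± 129 CPM in dark and 520 ± 149 CPM in light at 9 hpe (SD, n = 7 each), had a log2 fold change of -0.29 ± 0.21 there, and its difference between ages of 1.08 ± 0.30 missed the threshold (edgeR adjusted p = 0.0609).

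**Figure D4:**
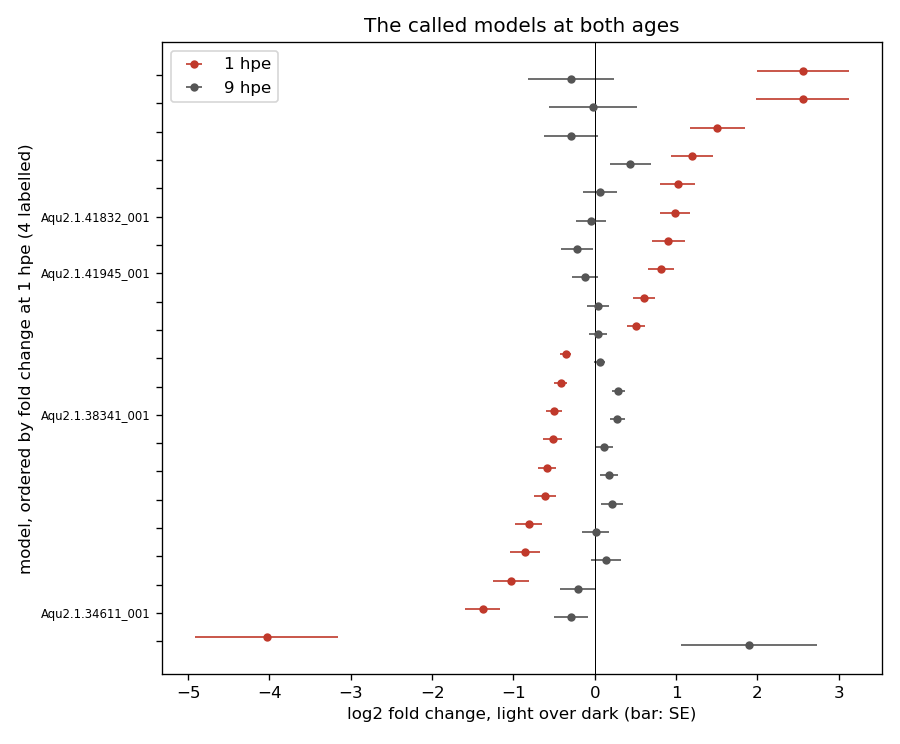
Log2 fold change of light over dark with its SE for each of the 21 models called at 1 hpe, at 1 hpe (red) and in the other larvae at 9 hpe (grey), ordered by the value at 1 hpe; the 4 named models are labelled. The grey points of the 10 higher models run from -0.29 to 0.44 and those of the 11 lower models from -0.29 to 1.897.

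The day-night larvae of 1 hpe place the contrast between a pair of regimes against a natural one. Collected from 11 am, they had met only the day part of that regime by 1 hpe. These comparisons share larvae with the contrast of light and dark, so their values are only set side by side. Of the 21 models, the day-night mean lay between the light and dark means for 15, above both for 4 and below both for 2. Against day-night, edgeR called 7 of the 21 in light (2 higher and 5 lower, beside 0.141% and 0.733% of all models tested, 0.874% in all). In dark edgeR called 0 of the 21 (beside 2 or 0.0141% of all models tested), as did DESeq2 and limma voom. At an unadjusted p below 0.05 edgeR gave 11 of the 21 in dark, beside 1170 of all models tested (8.25%). The log2 fold changes of the 11 lower models ran from -1.37 to -0.14 for light over day-night (median -0.62), and from -0.30 to 2.67 for dark over day-night (median 0.25). Those of the 10 higher models ran from 0.29 to 2.74 (median 0.58) and from -1.34 to 0.18 (median -0.32).

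The contrast was then set against the change with age. In the 15 day-night larvae alone, which are in neither constant regime, edgeR called 1187 of 11408 models as risen from 1 to 9 hpe (10.4%) and 1344 as fallen (11.8%). All larvae were collected from 11 am, so age, time of day and natural light changed together here and cannot be told apart. Below, a change with age stands for that joint change. Of the models that rose with age, 792 (66.7%) had a fold change above 0 for light over dark at 1 hpe, with a median log2 fold change of 0.13. Of those that fell with age, 358 (26.6%) did, with a median of -0.15. Over all models tested the share was 50.3%. Of the 10 models higher in light 5 had risen with age, 0 had fallen, 4 were not called and 1 was not tested. Of the 11 lower in light 7 had fallen, 2 were not called, 1 was not tested, and 1, Aqu2.1.34611_001, had risen (log2 fold change 3.10 ± 0.20, edgeR adjusted p = 6.06e-08).

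An age score summarised this larva by larva. It is the average log2 CPM over the risen models less the average over the fallen models, so that a higher score lies nearer the 9 hpe day-night larvae. The score ran from -1.98 to -1.70 in dark larvae of 1 hpe (median -1.86) and from -1.82 to -1.46 in light larvae (median -1.57). Only light replicate 6, at -1.82, lay within the range of the dark larvae. The means were -1.57 ± 0.122 in light and -1.84 ± 0.110 in dark (SD, n = 7 each), a difference of 0.28 (exact two-sided permutation test p = 0.00291, adjusted p = 0.0117 over all 8 tests and 0.0175 over the 6 that did not compare light with dark at 9 hpe). With alike larvae averaged within a regime, a setting chosen after seeing the data, the difference was 0.22 and the exact permutation p = 0.0317, where 0.0159 was the smallest possible. Day-night larvae of 1 hpe, whose counts chose the models, had -2.11 ± 0.237 (SD, n = 7).

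At 9 hpe the light larvae had the lower age score. It was -0.76 ± 0.188 in light and -0.49 ± 0.191 in dark (SD, n = 7 each), a difference of -0.27 (exact two-sided permutation test p = 0.0245, adjusted p = 0.0490 over all 8 tests). Over the 7 tests without the difference between ages the adjusted p was 0.0571, so the value passed 0.05 only with that test in the family. The change of the contrast between the ages was -0.54, with an exact permutation p of 0.000198 (adjusted p = 0.00158), and both this test and that of the 9 hpe score were added after seeing the data. Total counts at 9 hpe also differed in mean, at 3212744 ± 383430 in light and 2508172 ± 462633 in dark, and the part of depth in the 9 hpe score was not tested. In whole larvae, a change in the share of a cell type and a change of transcripts per cell cannot be told apart.

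**Figure D5:**
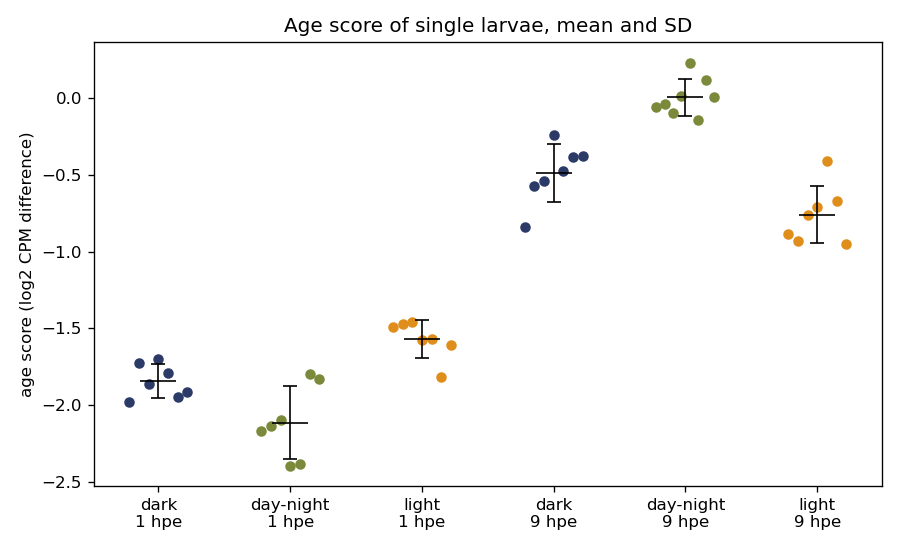
Age score (log2 CPM difference between models that rose and fell with age in day-night larvae) of each larva by regime and age, with the mean and SD of each group as bars. At 1 hpe light larvae average -1.57 and dark larvae -1.84, and at 9 hpe the order is the other way round, at -0.76 and -0.49.

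Whole profiles were compared last. The mean distance was 153.0 between light and dark larvae, 148.1 among light larvae and 149.4 among dark larvae, and between-regime pairs exceeded within-regime pairs by 4.21 (exact two-sided permutation test p = 0.0140, adjusted p = 0.0373 over 8 tests and 0.0420 over the 6). That difference moved with the sets of alike larvae. With the profiles of alike larvae averaged within a regime, chosen after seeing the data, it was 0.128 (exact permutation p = 0.960). An average of several larvae is less noisy than a single larva, so distances in that setting mix unlike profiles. Without the 10 close pairs the mean distance was 154.0 over 46 pairs of different regimes and 152.1 over 35 pairs of the same regime, given with no test. The spread among light larvae and that among dark larvae differed by -1.31 (exact permutation p = 0.582).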

How the data were processed

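Whole single larvae were sequenced by CEL-Seq2, a barcoded protocol for small inputs that counts the 3′ ends of polyadenylated transcripts, per the labels' protocols. The deposited table holds the authors' raw counts for 47411 transcript models. Which aligner, counter, genome build and annotation made them is not given in the sources used here, and models with near-identical copies may share reads. A second deposited table was not used here. The highest count was 8192, which looks like an upper limit of the counting, and the highest count of a called model was 2766.

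Groups came from the titles. Replicates are separate larvae per the labels, which give no parent or batch, and each p-value reflects only how much these larvae vary. No replicate pair agreed within sampling noise (chi-square per degree of freedom 14.9 to 27.6 over 42 pairs within the light and dark groups).

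Models were filtered with filterByExpr by group (minimum count 10), scaled with TMM and fitted in 1 edgeR 4.0.16 quasi-likelihood model over all 43 larvae (R 4.3.3), with p-values adjusted over all 14188 models. The change with age had a fit of its own. Log2 CPM used a prior count of 2. limma 3.58.1 and DESeq2 1.42.0 were alternatives, and the fit was tested on simulated data. Single values had exact permutation tests over 3432 regroupings, which take larvae as independent. The 2 models with the smallest p in each direction are named. The groups, lists and tests were chosen with earlier results of these data known.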

Additional observations from a re-analysis of the deposited data

Results flagged for a closer look

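The age score of light replicate 6 at 1 hpe, -1.82, lay far from those of the other 6 light larvae. Its gap to the nearest of them was 0.586 of the range of the group. It was the one such case among 16 groups looked at. Chance gives about 1 such case in 20 groups, so 1 among 16 is near what chance gives.

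The light against dark contrast differed between the ages by a test of the difference for 3 of the named models. The log2 difference, 9 hpe minus 1 hpe, was -1.03 ± 0.26 for Aqu2.1.41832_001 (SE, edgeR adjusted p = 0.0352). It was -0.94 ± 0.22 for Aqu2.1.41945_001 (edgeR adjusted p = 0.0271) and 0.78 ± 0.13 for Aqu2.1.38341_001 (edgeR adjusted p = 0.000940). The models were chosen on the 1 hpe larvae that enter this difference.

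The age score, light minus dark, also differed between the ages, by -0.54 from 1 to 9 hpe (exact permutation adjusted p = 0.00158). It was higher in light at 1 hpe and lower in light at 9 hpe.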

How the results depend on the processing

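The count of 21 models moved with most choices. It was 1 with no filter on low counts, 102 with DESeq2 (20 of the 21 among them), 5 with only the 14 larvae fitted, 7 with the second principal component as a covariate, 1 without the larvae apart on it, and, chosen after seeing the data, 1 with components 2 and 3 as covariates and 0 with alike larvae summed. Leaving out 1 larva gave 3 to 18. It was 21 with RLE size factors, 22 at a minimum count of 20 and 15 with limma voom. Same-numbered larvae did not deviate together (correlations -0.06 to 0.02, 0 of 7 over 0.1, and 1 light larva correlating best with its own number), so the numbers do not pair them. With the replicate block 6 models were called, Aqu2.1.41945_001 lost its call (edgeR adjusted p = 0.0610), and 92 in place of 148 for the difference between ages. DESeq2 called 312 in place of 116 at 9 hpe and 416 in place of 148 for the difference between ages. Of the 21 models, 13 were called in fewer than 10 of 25 settings, 7 in 10 to 19, and 1 in at least 20.

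The age score difference at 1 hpe was 0.192 to 0.316 over every alternative run, leave-one-out included. The exact permutation p was at most 0.0317 there. These p-values were not adjusted, whereas the main result was judged on a p adjusted over 8 tests. The profile distance lost its call with alike larvae averaged (0.128, exact permutation p = 0.960), where the spread difference turned to 8.11. Leaving out 1 larva moved the spread difference from -3.44 to 0.628, the log10 total difference from -0.00631 to 0.0226, and the top 100 share difference from -1.24 (without dark replicate 3, exact permutation p = 0.0455) to -0.692. The cause of these shifts was not tested. Counts of the most abundant models may be limited from above, and their fold changes may be understated.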
